A study of Mus musculus with 14 samples.

Results

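The acinar secretory product genes are 10 genes that encode proteins of saliva: Dcpp1, Dcpp2, Dcpp3, Bpifa2, Prol1, Pip, Car6, Mucl2, Smgc and Lpo. They were picked by gene name from a table of 54532 genes, and all 10 were found there. All 10 were also among the 15915 genes that passed a filter on low counts and were tested.

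The libraries came from adult mice with 1 Tert allele that carries a tamoxifen-inducible Cre recombinase (TertCreERT2/+) and 1 Rosa26 allele with a tdTomato reporter that Cre switches on (Rosa26LSL-tdTomato/+). All 4 groups share these alleles. From the submandibular gland, 1 of the major salivary glands, cells were sorted that excluded DAPI, a dye that enters dead cells, and that carried EpCAM, an adhesion protein on the surface of epithelium. Cells that fluoresced for tdTomato are called Tert+ and those that did not Tert-. The groups were Tert+ without radiation (no RT, n = 3), Tert- no RT (n = 3), Tert+ after 15 Gy (RT, n = 4) and Tert- after 15 Gy (n = 4). The time of tamoxifen, the time from RT to sorting, and whether replicates came from separate animals are not given in the labels, and the p-values therefore reflect no more than the spread among these libraries. The reporter marks cells in which the Tert locus drove Cre when tamoxifen was given, which need not be cells with Tert RNA at sorting. The cell type field of the labels named the opposite population in all 14 libraries. The titles were followed here, and the sign of any difference between Tert+ and Tert- depends on them.

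Acinar cells build saliva proteins on the rough endoplasmic reticulum, pack them into granules and release them by exocytosis when nerves signal. A serous acinar cell makes enzymes, binding proteins and antimicrobial proteins, and a mucous one makes mucins. These products rank among the most abundant transcripts of a salivary gland, and they differ between the major glands, between the sexes and with age in mice.

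Total counts ran from 5520412 to 15943597 per library. Markers went against the label in part. The B cell antigen receptor gene Cd79a had a median of 2790 CPM (counts scaled to a common library total) and the leukocyte gene Ptprc 1368 CPM, whereas Epcam, the gene of the sort marker, had 43.5 CPM, with a range of 29.7 to 126 CPM. The acinar markers Aqp5, a water channel, and Bhlha15, a transcription factor of secretory cells, had medians of 18.1 and 8.58 CPM, and no library was at 0 for either. All 8 genes of a B cell list were tested, none was at 0 in any library, and their summed share of counts was 0.801% to 1.37% in Tert+ no RT, 0.806% to 1.26% in Tert- no RT, 1.04% to 1.22% in Tert+ RT and 0.950% to 1.03% in Tert- RT. In bulk libraries such as these, fewer acinar cells and less RNA per acinar cell cannot be told apart. Tert itself had 0, 7 and 8 counts in Tert+ no RT and 22, 28 and 13 in Tert- no RT, the reverse of the order in the titles. After RT it had 0, 52, 34 and 15 counts in Tert+ and 0, 0, 9 and 15 in Tert-, with overlap and more counts on the Tert+ side, as titled.

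The loci of the 10 genes lie on 7 chromosomes of the build mm10. The 3 Dcpp genes (demilune cell and parotid protein, after the serous demilunes that cap mucous acini) sit close together on the plus strand of chromosome 17. Dcpp1 (ENSMUSG00000096445) is at 23880876 to 23882853, Dcpp2 (ENSMUSG00000096278) at 23880880 to 23900787 and Dcpp3 (ENSMUSG00000057417) at 23917458 to 23919441. Mucl2 (ENSMUSG00000036925), a mucin-like protein that RefSeq also lists as Spt1, is at 103895855 to 103899312 on chromosome 15, minus strand. Smgc (ENSMUSG00000047295), submandibular gland protein C, is on the same chromosome at 91838265 to 91861438, plus strand. Prol1 (ENSMUSG00000064156), the mucin also called Muc10, is on chromosome 5 at 88317312 to 88328814. Pip (ENSMUSG00000058499), prolactin-induced protein, is on chromosome 6 at 41847535 to 41852065. Bpifa2 (ENSMUSG00000042459), the parotid secretory protein, is on chromosome 2 at 154008265 to 154016079. Car6 (ENSMUSG00000028972), the secreted carbonic anhydrase, is on chromosome 4 at 150187015 to 150201332, minus strand. Lpo (ENSMUSG00000009356), the antimicrobial enzyme lactoperoxidase, is on chromosome 11 at 87806428 to 87828289, minus strand.

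Shared sequence bears on the counts of these genes. The Dcpp coding sequences of 510 to 513 bases were 93.8% identical between Dcpp1 and Dcpp2, 93.7% between Dcpp1 and Dcpp3 and 95.9% between Dcpp2 and Dcpp3, with gap positions left out. Of all 50-base stretches of their transcripts, 46.5% in Dcpp1, 44.2% in Dcpp2 and 45.8% in Dcpp3 also occurred in another Dcpp gene. The annotated span of Dcpp2 overlaps that of Dcpp1 in all but its first few bases. How the authors counted reads that fit several genes is not given in the sources used here, so the split among the Dcpp genes is uncertain. Smgc overlaps the annotated span of the mucin gene Muc19 on the same strand and shared 1.41% of its 50-base stretches with it. RefSeq lists Muc19 and Muc19/Smgc as other names of Smgc, whereas the count table holds Smgc and Muc19 as separate genes. Mucl2 shared 0.10% with Mucl1. The other 5 genes shared none.

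The likeness of the copies extends into the promoters. For this reason the 150 bases before the RefSeq start (GRCm38.p6, the same sequence build as mm10) are shown for the 3 Dcpp genes. Those of Mucl2 and Pip are added, a pair from another set of genes that varied together, called the first set below. The RefSeq start can differ from the start in the count table. For Dcpp2 the window lies inside the span of the table, which begins at 23880880. Capitals mark TATAAA or ATATAA on the printed strand, the letters of a TATA box and of a close relative.
Dcpp1, chr17:23880726-23880875, plus strand: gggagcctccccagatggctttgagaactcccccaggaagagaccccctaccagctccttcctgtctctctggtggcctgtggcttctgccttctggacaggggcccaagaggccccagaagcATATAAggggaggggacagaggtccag
Dcpp2, chr17:23898572-23898721, plus strand: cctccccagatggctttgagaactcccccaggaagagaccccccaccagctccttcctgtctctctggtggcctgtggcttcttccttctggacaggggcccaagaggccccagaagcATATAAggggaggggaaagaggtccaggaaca
Dcpp3, chr17:23917308-23917457, plus strand: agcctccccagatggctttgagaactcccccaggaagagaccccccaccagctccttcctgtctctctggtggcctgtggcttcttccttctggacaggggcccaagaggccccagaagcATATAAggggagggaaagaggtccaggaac
Mucl2, chr15:103899313-103899462, minus strand: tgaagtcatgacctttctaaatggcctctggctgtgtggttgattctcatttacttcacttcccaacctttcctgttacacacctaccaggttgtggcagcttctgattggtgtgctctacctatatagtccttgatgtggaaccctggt
Pip, chr6:41847399-41847548, plus strand: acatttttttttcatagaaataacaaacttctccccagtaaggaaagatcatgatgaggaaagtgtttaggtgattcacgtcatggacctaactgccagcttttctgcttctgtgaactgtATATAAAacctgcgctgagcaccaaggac

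Over 250 bases before the start, the Dcpp windows were 97.1% to 98.0% identical. ATATAA, searched on both strands and chosen after the windows had been seen, began 27, 32 and 30 bases before the start in Dcpp1, Dcpp2 and Dcpp3 and 29 in Pip, where it overlaps TATAAA. In Bpifa2 it began 41 bases before the start. Of 32851 RefSeq promoter windows, 9.10% held ATATAA on either strand of the 250 bases. At 20 to 40 bases before the start, counted on the strand of the gene only, it was in 1.19%. TATAAA anywhere in the 250 bases was found in 12.4% of windows, and among the 10 genes in Pip and Smgc. The Mucl2 window held neither string. Its printed bases contain TATATA near the start of the gene, which was not among the motifs searched. The window had CCAAT on the opposite strand 44 bases before the start, a motif of 33.9% of windows that Car6 and Smgc also held. The E box CATATG was in 3.46% of windows and in none of the 10 genes, and CAGCTG was in 13% of windows and in Car6. These matches describe letters only.

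The 10 genes together took 11.1%, 0.377% and 0.750% of all counts in the 3 Tert+ no RT libraries. They took 2.58%, 0.532% and 3.61% in Tert- no RT, then 1.26%, 2.82%, 2.10% and 0.461% in Tert+ RT, and 1.26%, 0.457%, 1.52% and 0.606% in Tert- RT. The highest and the lowest share both belonged to the Tert+ no RT group, 29.4 times apart, and every group overlapped every other. The group means were 4.07% ± 6.07 (SD, n = 3), 2.24% ± 1.57 (SD, n = 3), 1.66% ± 1.02 (SD, n = 4) and 0.960% ± 0.510 (SD, n = 4) in that order.

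Tert+ no RT replicate 1 stood apart. It had the highest level of 6 of the 10 genes (Mucl2, Car6, Pip, Prol1, Lpo and Dcpp1), while Tert+ no RT replicate 2 had the lowest of 5 (Dcpp1, Dcpp2, Dcpp3, Bpifa2 and Prol1). Replicate 1 also had the highest Aqp5 (261 CPM), Bhlha15 (78.0 CPM) and Epcam (126 CPM) of all 14 libraries. Its B cell share of counts was the lowest (0.801%), close to 0.806% in Tert- no RT replicate 1. In summed CPM the B cell list was at 9006 in Tert+ no RT replicate 1 and lower, at 7979, in Tert- no RT replicate 1. The part of these differences in the results below was not tested beyond leaving the library out.

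Per kilobase of the gene length in the table, median levels over the 14 libraries were highest for the Dcpp genes, at 3760 CPM per kilobase for Dcpp3, 2321 for Dcpp1 and 1893 for Dcpp2. Mucl2 followed at 869 CPM per kilobase, then Bpifa2 at 490, Smgc at 389, Prol1 at 149, Car6 at 72.1 and Pip at 41.1. Lpo was last at 0.752 CPM per kilobase. Neighbours in this order overlapped in their range over libraries, since each gene other than Lpo spanned at least 47.8-fold. Lpo was at 0 counts in Tert- RT replicates 2 and 3, so no fold range is given for it. By the SD of log2 CPM over libraries, Mucl2 (2.34) varied more than 99.2% of tested genes and Smgc (1.48), the least variable of the 10, more than 83.2%.

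**Figure D1:**
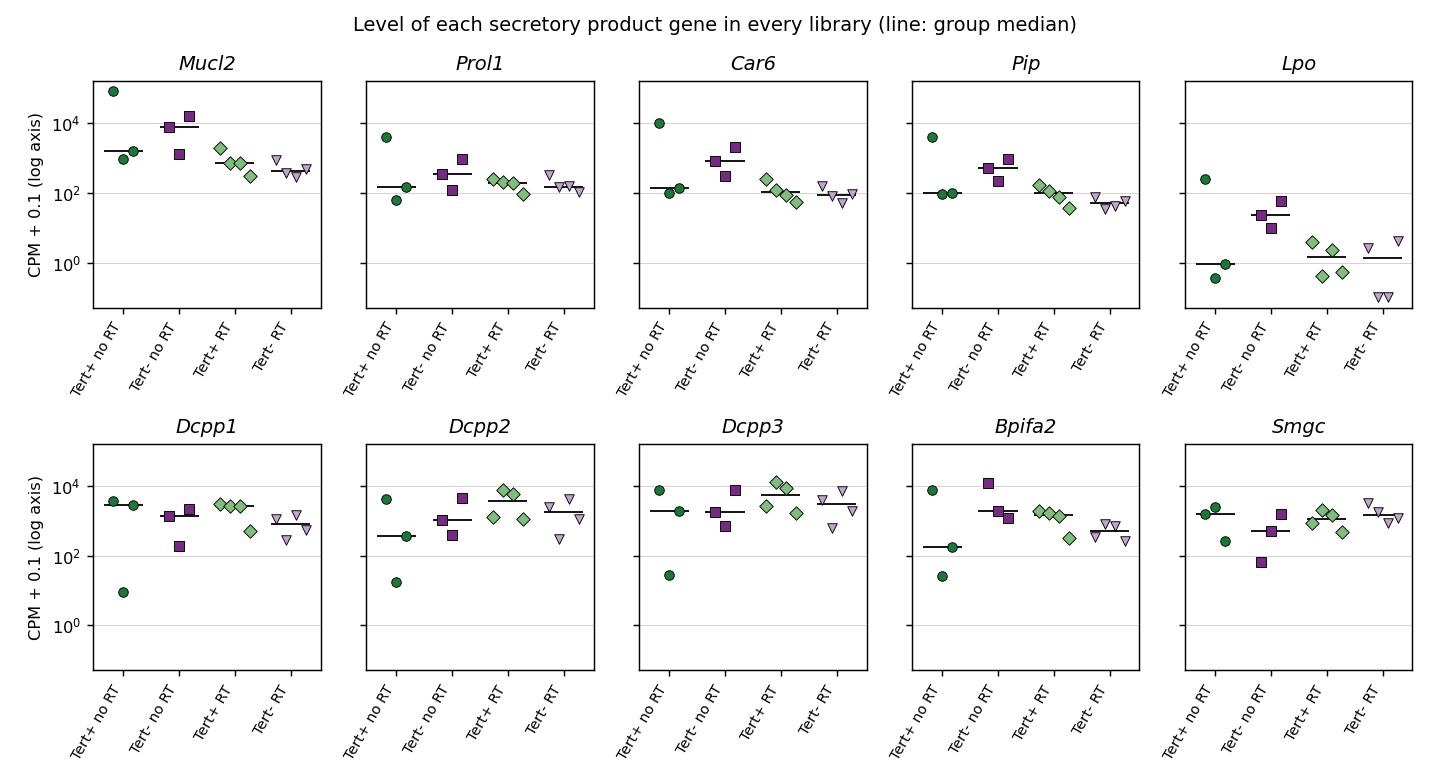
Level of each of the 10 genes in every library, as CPM + 0.1 on a log axis, with 1 point per library and a line at the group median. Tert+ no RT replicate 1 (first point of each panel) lies above all other libraries for Mucl2, at 81682 CPM, and replicate 2 below all others for Dcpp1, at 8.84 CPM.

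A first set of genes, Mucl2, Car6, Pip, Prol1 and Lpo, each had their highest level in Tert+ no RT replicate 1, as Dcpp1 did. Mucl2 was at 81682, 919 and 1575 CPM in Tert+ no RT, 7606, 1292 and 15662 in Tert- no RT, 1994, 734, 722 and 313 in Tert+ RT, and 899, 372, 288 and 481 in Tert- RT. All 4 Tert- RT libraries lay below all 3 Tert- no RT libraries, while the Tert+ groups overlapped because replicate 1 of the RT group exceeded 2 libraries without RT.

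Car6, the carbonic anhydrase that buffers saliva, was at 10226, 95.9 and 141 CPM in Tert+ no RT, 846, 308 and 2004 in Tert- no RT, 245, 120, 86.8 and 53.9 in Tert+ RT, and 157, 82.3, 51.2 and 90.7 in Tert- RT. Pip, a small secreted protein that binds bacteria and other saliva proteins, was at 4049, 94.9 and 101 CPM in Tert+ no RT, 520, 213 and 957 in Tert- no RT, 163, 116, 78.2 and 37.2 in Tert+ RT, and 78.2, 34.3, 42.9 and 58.8 in Tert- RT. For both genes the Tert- groups did not overlap and the Tert+ groups did.

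Prol1, the mucin, was at 4090, 60.7 and 147 CPM in Tert+ no RT, 341, 120 and 960 in Tert- no RT, 258, 199, 192 and 91.9 in Tert+ RT, and 324, 150, 154 and 107 in Tert- RT. Its RT states overlapped in both populations, unlike those of the other 4 genes of the set in Tert-. Lpo, the least abundant of the 10 per length, had 1988, 4 and 11 counts in Tert+ no RT, 317, 113 and 568 in Tert- no RT, 44, 2, 16 and 5 in Tert+ RT, and 14, 0, 0 and 46 in Tert- RT. A count of 0 allows up to 3 counts, or 0.389 and 0.396 CPM in these libraries, by counting error alone, and the Tert- groups did not overlap.

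For the Dcpp genes no RT state stood apart in either population. Dcpp3 was at 7367, 28.2 and 1950 CPM in Tert+ no RT, 1767, 696 and 7714 in Tert- no RT, 2637, 12523, 8628 and 1646 in Tert+ RT, and 4053, 614, 7135 and 1865 in Tert- RT. The highest library of each group was at 7135 CPM or more, and all groups overlapped. Dcpp2 was at 4097, 17.6 and 367 CPM in Tert+ no RT, 1021, 384 and 4376 in Tert- no RT, 1280, 7378, 5895 and 1147 in Tert+ RT, and 2452, 305, 4072 and 1146 in Tert- RT. Dcpp1 was at 3584, 8.84 and 2784 CPM in Tert+ no RT, 1396, 185 and 2107 in Tert- no RT, 2915, 2623, 2690 and 514 in Tert+ RT, and 1110, 279, 1468 and 524 in Tert- RT.

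Dcpp2 counts were 0.188 to 0.697 of Dcpp3 counts, with a median of 0.574. The lowest of these ratios and the highest ratio of Dcpp1 to Dcpp2, 7.58 against a median of 0.482, both came from Tert+ no RT replicate 3. In that library Dcpp1 made up 37.1% of the counts of the 10 genes and Dcpp2 4.90%.

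Bpifa2, a lipid-binding protein of saliva, was at 7723, 26.6 and 171 CPM in Tert+ no RT, 11946, 1931 and 1188 in Tert- no RT, 1927, 1624, 1337 and 326 in Tert+ RT, and 352, 779, 689 and 254 in Tert- RT. Its highest library was Tert- no RT replicate 1, where it made up 46.8% of the counts of the 10 genes, and its Tert- groups did not overlap. Smgc, a product known from the neonatal submandibular gland, was at 1517, 2540 and 257 CPM in Tert+ no RT, 65.7, 517 and 1605 in Tert- no RT, 843, 1960, 1460 and 460 in Tert+ RT, and 3140, 1791, 868 and 1191 in Tert- RT. Its level in Tert+ no RT replicate 2, the library lowest for 5 of the other genes, was exceeded only in Tert- RT replicate 1, and it made up 67.0% of the counts of the 10 genes there.

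**Figure D2:**
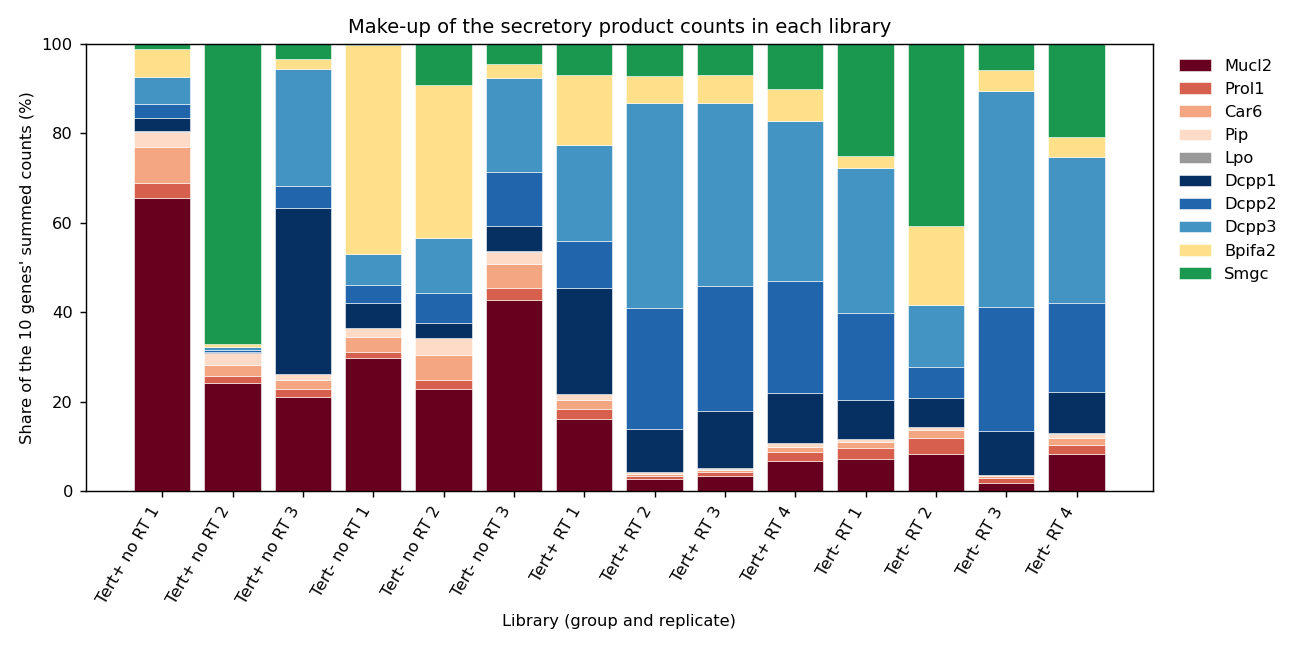
Share of each gene in the summed counts of the 10 genes, 1 bar per library from 0 to 100%. Mucl2 (dark red) takes 21.0% to 65.6% of the bar in the 6 no RT libraries and 1.95% to 16.3% in the 8 RT libraries, where the Dcpp genes (blues) and Smgc (green) fill most of it.

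The make-up of the product set differed between libraries with and without RT. Mucl2 took 21.0% to 65.6% of the counts of the 10 genes in Tert+ no RT and 22.8% to 42.8% in Tert- no RT, and 2.69% to 16.3% in Tert+ RT and 1.95% to 8.45% in Tert- RT. The summed Dcpp counts were 0.0594 to 3.24 times those of Mucl2 in Tert+ no RT and 0.550 to 0.979 times in Tert- no RT. After RT they were 3.43 to 30.7 times in Tert+ and 3.22 to 44.1 times in Tert-. The ratio of Mucl2 to Prol1 was 10.7 to 22.3 over the libraries without RT and 1.87 to 7.74 over those with RT, so these ranges did not overlap. The ratios were chosen after the values had been seen and are a description without a test. All RT libraries carry higher library numbers than the others, so RT and whatever goes with library number cannot be told apart. Xist, the RNA of the inactive X chromosome in female cells, also differed between the RT states without overlap. It was at 82.2 to 221 CPM in the 6 libraries without RT and 250 to 413 CPM in the 8 with RT. Of 15915 tested genes, 2471 had RT states that did not overlap within Tert+ and 3011 within Tert-, in either direction. The number over both populations together was not counted. No library was at 0 for Xist, with 798 to 3268 counts. The sex of the mice is not given in the labels used here, and the part of the Xist difference in the make-up was not tested.

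**Figure D3:**
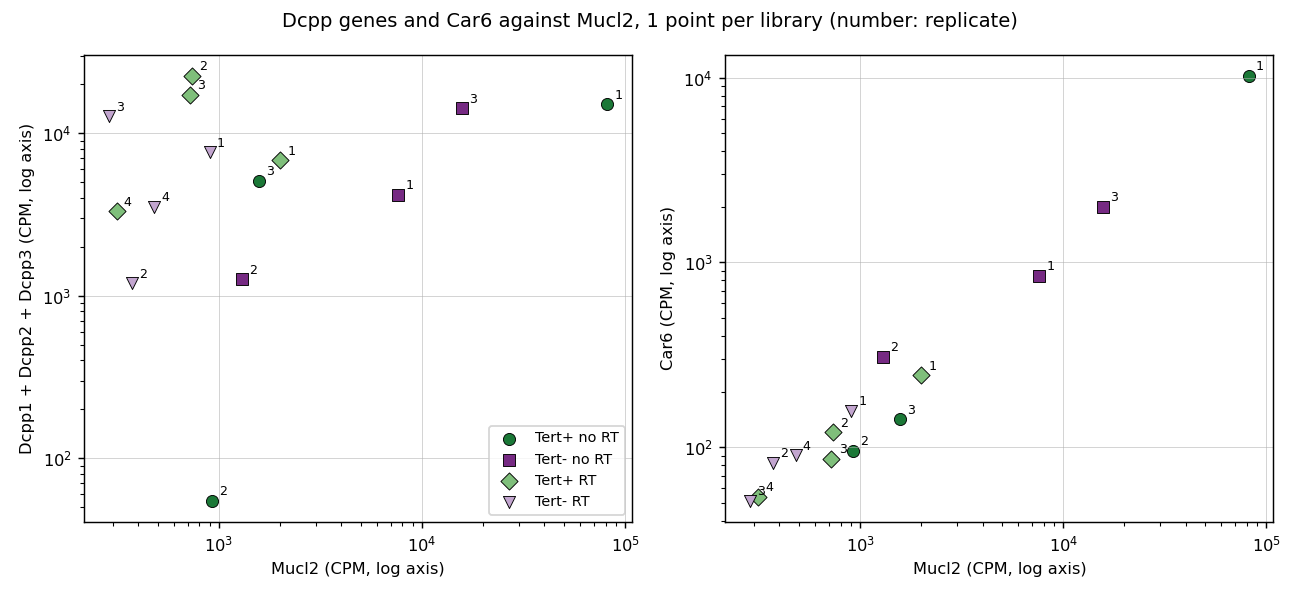
Summed Dcpp1, Dcpp2 and Dcpp3 (left) and Car6 (right) against Mucl2, in CPM on log axes, 1 numbered point per library. Car6 follows Mucl2 along a line (Pearson's r of log2 CPM 0.98), whereas the Dcpp sum, at 3.22 to 44.1 times Mucl2 in the RT libraries and 0.0594 to 3.24 times in the others, does not.

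Correlations of log2 CPM over the 14 libraries are given as a description because the libraries share depth, scaling and sorted tissue. Pearson's r was 0.98 for each pair among Mucl2, Car6 and Pip, 0.80 to 0.90 for Prol1 with the other 4 genes of the first set and 0.90 to 0.92 for Lpo with Mucl2, Car6 and Pip. The place of Prol1 rested in part on Tert+ no RT replicate 1. Without it Prol1 had an r of 0.66 to 0.78 with those 4 genes and 0.60 to 0.64 with the Dcpp genes, and over all libraries its Spearman's rho was 0.56 to 0.66 with the former and 0.60 to 0.66 with the latter. Dcpp2 and Dcpp3 had an r of 0.98, and Dcpp1 had 0.86 with Dcpp2 and 0.93 with Dcpp3, pairs that share sequence. Between Mucl2 and the Dcpp genes r was 0.21 to 0.35. With the group means removed it was 0.66 to 0.72, so within groups these genes varied together more than over all libraries. By RT state, r of Mucl2 with Dcpp1, Dcpp2 and Dcpp3 was 0.68, 0.84 and 0.77 without RT. With RT it was 0.65, 0.18 and 0.24. The RT states differ in their number of libraries, and the difference between these r values was not tested. The libraries without RT include Tert+ no RT replicate 1, the highest for Mucl2. Without it, r of Mucl2 with Dcpp1, Dcpp2 and Dcpp3 over all remaining libraries was 0.24, 0.07 and 0.11. By RT state, r without that library was not computed. Smgc had r values of -0.37 to 0.08 with the other genes.

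**Figure D4:**
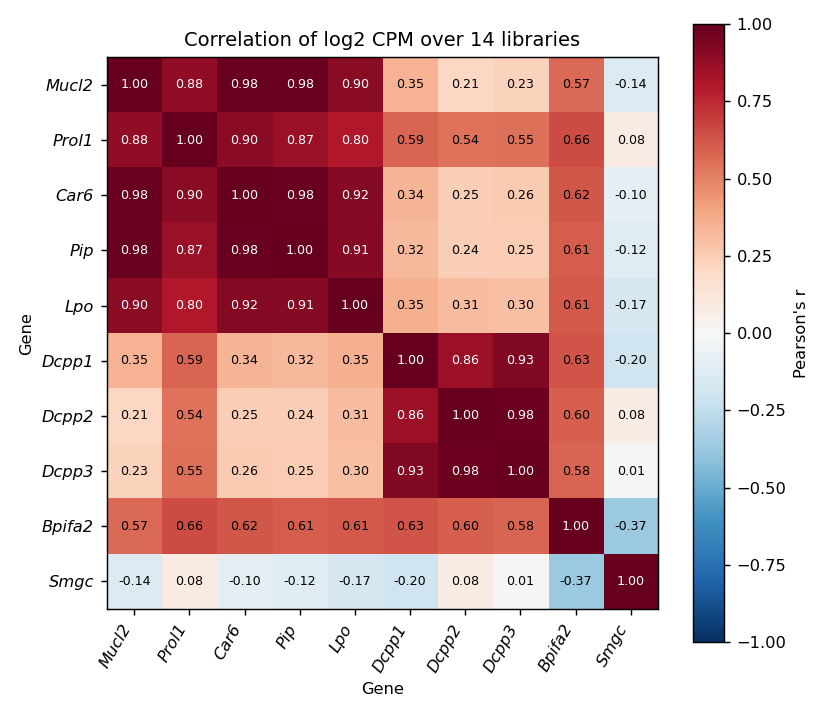
Pearson's r of log2 CPM over the 14 libraries for each pair of the 10 genes, from -1 (blue) to 1 (red). Mucl2, Prol1, Car6, Pip and Lpo, grouped from these same values, had r from 0.80 to 0.98 with each other (Prol1 0.66 to 0.78 without Tert+ no RT replicate 1). The Dcpp genes had 0.86 to 0.98, and Smgc is near 0 or below with each of the others.

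The 5 other genes most like the mean standardised profile of the 10 were Agt, Aqp5, Ppp1r1b, Gjb1 and Scgb2b27 (n = 14 libraries). Agt, angiotensinogen, had a Pearson's r of 0.95 and a Spearman's rho of 0.88. Aqp5, the acinar water channel, had 0.90 and 0.80, Ppp1r1b, a phosphatase inhibitor, 0.88 and 0.78, Gjb1, a gap junction protein, 0.87 and 0.67, and Scgb2b27, a secretoglobin, 0.85 and 0.78. Without the 2 libraries farthest from the median, Tert+ no RT replicates 1 and 2, r was 0.87 for Agt, 0.74 for Aqp5, 0.65 for Ppp1r1b, 0.58 for Gjb1 and 0.83 for Scgb2b27.

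Radiation, which is known to impair salivary output, was compared within each population. In Tert+, RT libraries had lower mean levels of the first set, but none of the 10 genes passed the test. The set was grouped from these same values, and all its genes were highest in Tert+ no RT replicate 1. That library is on the no RT side of this comparison, so the lower means partly follow from the grouping. By edgeR's quasi-likelihood test with adjustment over all genes, 0 of 10 had an adjusted p under 0.05, against 315 of 15915 genes, or 1.98%. Unadjusted, 5 of 10 were under 0.05, as were 2859 of all genes. DESeq2 called 4 of the 10, Mucl2 (DESeq2 adjusted p = 0.000545), Car6 (0.00336), Pip (0.00953) and Lpo (0.0499), against 1057 of all genes. Limma voom called 0 of the 10, against 457 of all genes. The median log2 fold change was -1.99 over the 10 genes and 0.00 over all tested genes, with 3 of the 10 higher and 7 lower.

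Mucl2 had a mean of 28059 ± 46440 CPM (SD, n = 3) without RT and 941 ± 729 CPM (SD, n = 4) after RT in Tert+, a log2 fold change of -4.90 ± 1.46 (SE; edgeR adjusted p = 0.112). Car6 had -4.78 ± 1.42 (edgeR adjusted p = 0.112), Pip -3.84 ± 1.18 (edgeR adjusted p = 0.123), Lpo -5.53 ± 1.97 (edgeR adjusted p = 0.174) and Prol1 -2.95 ± 1.19 (edgeR adjusted p = 0.226). These values rested on Tert+ no RT replicate 1. Without it the log2 fold changes were -0.41 for Mucl2, 0.09 for Car6, 0.01 for Pip, 1.65 for Lpo and 0.83 for Prol1. None of the 10 genes had RT libraries that all lay below the libraries without RT in Tert+, against 1313 of all tested genes, or 8.25%.

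In the same comparison Dcpp1 had a log2 fold change of 0.04 ± 1.28, Dcpp2 1.39 ± 1.47, Dcpp3 1.03 ± 1.39, Bpifa2 -1.02 ± 1.39 and Smgc -0.28 ± 0.95 (SE; edgeR adjusted p from 0.695 to 0.995). Without replicate 1 these were 0.64, 4.35, 2.68, 3.72 and -0.24, so Bpifa2 changed sign. The Dcpp counts summed into 1 value, which does not depend on how shared reads were split, had 0.89 ± 1.35 (SE; edgeR adjusted p = 0.806).

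In Tert-, mean levels of the first set and of Bpifa2 were lower in RT libraries, again with none past the edgeR threshold. It was 0 of 10 against 258 of 15915 genes, or 1.62%. Unadjusted, 5 of 10 were under 0.05, as were 2995 of all genes. DESeq2 called 3 of the 10, Mucl2 (DESeq2 adjusted p = 0.00648), Pip (0.0224) and Car6 (0.0449), against 1202 of all genes. Limma voom called 0 of the 10, against 386 of all genes. The median log2 fold change was -2.32 over the 10 genes and -0.02 over all genes, with 3 of the 10 higher and 7 lower. For 5 of the 10 (Bpifa2, Pip, Car6, Mucl2 and Lpo) every RT library lay below every library without RT, against 1467 of all tested genes, or 9.22%.

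Mucl2 had a mean of 8187 ± 7202 CPM (SD, n = 3) without RT and 510 ± 271 CPM (SD, n = 4) after RT in Tert-, a log2 fold change of -4.01 ± 1.40 (SE; edgeR adjusted p = 0.159). Pip went from 563 ± 374 to 53.6 ± 19.3 CPM (SD, n = 3 and 4), a log2 fold change of -3.40 ± 1.17 (SE; edgeR adjusted p = 0.152). Car6 went from 1053 ± 867 to 95.4 ± 44.7 CPM (SD, n = 3 and 4), a log2 fold change of -3.47 ± 1.35 (SE; edgeR adjusted p = 0.201). The calls changed when 1 library was left out. All groups share 1 estimate of the spread in this fit, so a library outside a comparison also enters its p-values. How much of the change came through that estimate was not tested. Without Tert+ no RT replicate 1, which is not in this comparison, the log2 fold changes were -4.00, -3.39 and -3.46, and the edgeR adjusted p was 0.0436 for Mucl2, 0.0118 for Pip and 0.0306 for Car6. With only the 2 Tert- groups fitted, Pip passed and Mucl2 and Car6 did not. Over all alternatives tried, log2 fold changes ran from -4.52 to -3.12 for Mucl2, -3.80 to -2.77 for Pip and -3.91 to -2.59 for Car6, and adjusted p ran from 0.00648 to 0.410 for Mucl2, 0.0118 to 0.388 for Pip and 0.0306 to 0.482 for Car6.

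Lpo had a log2 fold change of -4.19 ± 1.90 (SE; edgeR adjusted p = 0.264) in Tert- and Bpifa2 -3.28 ± 1.46 (SE; edgeR adjusted p = 0.258). Prol1 had -1.37 ± 1.15, Dcpp1 -0.54 ± 1.27, Dcpp2 0.05 ± 1.41, Dcpp3 0.01 ± 1.36 and Smgc 1.26 ± 0.98 (SE; edgeR adjusted p from 0.548 to 0.999). The 95% interval of Dcpp2 reached from -3.06 to 3.16, so a change of several-fold in either direction was not detectable at this spread. Single libraries moved some of these values. Bpifa2 had -1.58 without Tert- no RT replicate 1, its highest library, and without Tert- no RT replicate 3 Prol1 had -0.32 and Smgc 2.58.

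**Figure D5:**
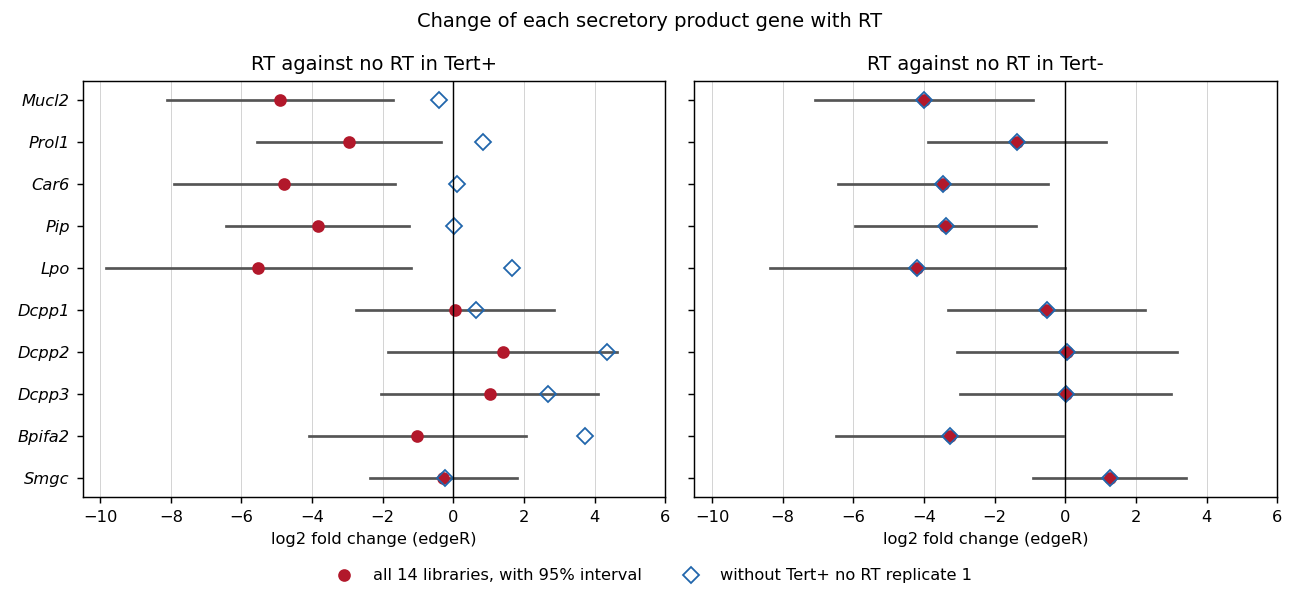
log2 fold change of RT against no RT in Tert+ (left) and Tert- (right) for each gene, from edgeR, with the 95% interval (line) and the value without Tert+ no RT replicate 1 (open diamond). In Tert+ the diamond for Mucl2 lies at -0.41 against -4.90 for all libraries, while in Tert- it lies on the circle, at -4.00 against -4.01.

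The RT effects in Tert+ and Tert- were compared directly as well. No gene of the table passed (0%; 578 under 0.05 unadjusted, 12 by DESeq2, 0 by limma voom), and of the 10 genes 0 did, also unadjusted. Differences of log2 fold change, Tert+ minus Tert-, ran from -1.58 for Prol1 to 2.26 for Bpifa2, with a median of -0.67 over the 10 genes against 0.01 over all genes. The interval for Mucl2, -4.97 to 3.18 around -0.89, leaves room for sizeable differences in either direction.

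Without RT, Tert+ and Tert- cells were compared next, and no difference in the 10 genes passed the test. Of the 10 genes 0 passed in edgeR, against 6 of 15915, or 0.0377%, and 0 of the 10 and 716 of all genes were under 0.05 unadjusted. DESeq2 called 0 of the 10 and 72 of all genes, and limma voom 0 of the 10 and 22 of all genes. The log2 fold change was positive for 7 genes and negative for 3 (median 1.15, all genes 0.01), led by Mucl2 at 1.78 ± 1.44, Car6 at 1.73 ± 1.41 and Prol1 at 1.60 ± 1.26 (SE; edgeR adjusted p = 1 for each). Without Tert+ no RT replicate 1 these turned to -2.71, -3.14 and -2.18, Pip from 1.33 to -2.51 and Lpo from 1.39 to -5.81. Macrophage genes differed with the population: all 6 of that list had lower values in Tert+. In edgeR 1 of them passed, the complement gene C1qc (5.48 ± 6.95 against 320 ± 35.1 CPM, SD, n = 3 each; edgeR adjusted p = 0.0433). DESeq2 and limma voom each called C1qa, C1qb and C1qc. The summed share of the list was 0.00836% to 0.0189% in Tert+ and 0.133% to 0.178% in Tert-. After RT all 6 were again lower in Tert+, with a median log2 fold change of -2.74. There edgeR called 0 of them, DESeq2 C1qc and limma voom 0. The part of the macrophage genes in the values of the 10 genes was not tested.

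After RT 0 of the 10 genes passed between Tert+ and Tert-, against 2 of 15915, or 0.0126%, and 0 of the 10 and 1177 of all genes were under 0.05 unadjusted. DESeq2 called 0 of the 10 and 109 of all genes, and limma voom 0 of the 10 and 0 of all genes. The log2 fold change was positive for 9 genes, with a median of 0.88 against 0.00 over all genes. Dcpp1 had 1.37 ± 1.20, Bpifa2 1.33 ± 1.32 and Mucl2 0.88 ± 1.22, and Smgc was the 1 negative value at -0.57 ± 0.88 (SE; edgeR adjusted p from 0.914 to 0.970).

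Other genes of the secretory pathway were read from lists. Of 31 matched genes for other saliva proteins 16 were tested, and 1 passed in 1 comparison: Cst3, the protease inhibitor cystatin C, was lower after RT in Tert-, at 445 ± 134 against 1113 ± 87.5 CPM (SD, n = 4 and 3; edgeR adjusted p = 0.0146). In Tert+ Cst3 was at 437 ± 110 CPM without RT and 285 ± 44.5 CPM after RT (SD, n = 3 and 4). All 6 genes of the macrophage list also had lower values after RT in Tert-, and in Tert+ 3 were lower and 3 higher. The part of macrophages in the Cst3 values was not tested. The 2 most abundant genes of the saliva protein list were the secretoglobins Scgb1b27 and Scgb2b27. Scgb2b27 was at 1887 ± 3103 CPM in Tert+ no RT, 548 ± 421 in Tert- no RT, 70.2 ± 46.4 in Tert+ RT and 36.0 ± 14.4 in Tert- RT. Scgb1b27 had a log2 fold change with RT of -5.33 in Tert+ and -3.93 in Tert- (edgeR adjusted p = 0.0837 and 0.151). DESeq2 called both secretoglobins for RT in both populations and Cst3 in Tert-, and limma voom Cst3 in Tert-. Without RT, where edgeR called 0 of the list between Tert+ and Tert- (4 under 0.05 unadjusted), DESeq2 called Cst3 and the amylase gene Amy1, and limma voom Cst3. By edgeR the log2 fold change there was -1.35 for Cst3 and -5.57 for Amy1 (edgeR adjusted p = 0.0846 and 0.801). Over the 16 genes the median was 0.30 in Tert+ and -1.08 in Tert-, against 0.00 and -0.02 over all genes.

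Of 13 tested transcription factors of acinar cells 0 passed in edgeR in any of the 5 comparisons. With RT 1 was under 0.05 unadjusted in each population, and DESeq2 called 1 in each, Xbp1, and limma voom 0. Xbp1, the most abundant, which drives the secretory apparatus, had a log2 fold change with RT of -0.72 in Tert+ and -0.75 in Tert- (edgeR adjusted p = 0.0683 and 0.0601). Ehf, an epithelial factor and the next in abundance, had 0.29 and -0.36. Of 16 genes of the secretory granule and export machinery 1 passed: Snap23, a SNARE protein of exocytosis, was higher after RT in Tert+, at 129 ± 22.1 against 74.1 ± 11.5 CPM (SD, n = 4 and 3; edgeR adjusted p = 0.0317). Limma voom also called Snap23 there, and DESeq2 called Snap23 in Tert+ and Vamp2, another SNARE protein, in both populations, with log2 fold changes from edgeR of 0.90 in Tert+ and 0.87 in Tert- (edgeR adjusted p = 0.107 for each). Sec61a1, of the channel into the endoplasmic reticulum, and Vamp8, a SNARE of granules, had -0.42 and -0.15 in Tert+ with RT. Of 9 tested genes of fluid secretion 0 passed in edgeR in any comparison. With RT 2 in Tert+ and 1 in Tert- were under 0.05 unadjusted, and DESeq2 called 1, the potassium channel gene Kcnn4 in Tert+, and limma voom 0. The 2 most abundant genes of fluid secretion, Atp1b1 of the sodium pump and Slc12a2, the chloride uptake carrier, had -0.33 and -0.70 with RT in Tert+.

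Lists of other cells of the gland were read the same way, with the 2 most abundant genes of each given by mean CPM over the 14 libraries. Of 18 products of granular ducts, the duct segment that stores kallikreins and growth factors (Klk1, 3573 CPM, and Klk1b26, 723 CPM), 0 passed in edgeR, DESeq2 or limma voom, with 1 under 0.05 unadjusted for RT in Tert- and 0 in Tert+. All 18 had lower values after RT in Tert- (median log2 fold change -1.21) and 16 of 18 higher values in Tert+ (median 0.57). Their share of counts was 0.175% to 0.497% in Tert+ no RT, 0.484% to 1.48% in Tert- no RT, 0.0867% to 0.641% in Tert+ RT and 0.205% to 1.23% in Tert- RT.

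For RT, edgeR called 0 of 10 duct epithelium genes (Krt18, 102 CPM, and Epcam, 59.9 CPM; 1 under 0.05 unadjusted in Tert+), 0 of 6 myoepithelial genes (Acta2, 7.35 CPM, and Krt14, 6.46 CPM; 0 unadjusted) and 0 of 8 B cell genes (Cd79a, 2940 CPM, and Fcmr, 1783 CPM; 1 unadjusted in Tert+). It called 0 of 7 T cell genes (Trbc2, 30.4 CPM, and Cd3e, 29.3 CPM; 4 unadjusted in Tert-), 0 of 4 endothelial genes (Pecam1, 219 CPM, and Kdr, 3.53 CPM; 0 unadjusted), 0 of 4 fibroblast genes (Dcn, 8.26 CPM, and Col1a1, 1.58 CPM; 1 unadjusted in Tert-) and 0 of 6 macrophage genes (C1qb, 151 CPM, and Csf1r, 148 CPM; 3 unadjusted in Tert+ and 1 in Tert-). In Tert- DESeq2 called Trbc2 and Csf1r, and limma voom called Csf1r, C1qa, C1qb and C1qc. Of 5 plasma cell genes, led by Mzb1 at 200.4 CPM, edgeR called 1: Jchain, the immunoglobulin joining chain, was lower after RT in Tert-, at 0.593 ± 0.712 against 44.3 ± 29.3 CPM (SD, n = 4 and 3; edgeR adjusted p = 0.0428). In Tert+ with RT, DESeq2 called Derl3 and limma voom Jchain. The part of these cells in the values of the 10 genes was not tested.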

How the data were processed

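RNA of 14 sorted libraries was analysed from the deposited table of counts per gene, which the authors gave without normalisation, per the file headers. HISAT2, without a version, and the build mm10 are named in the submitters' processing notes. The counting program and its rule for shared reads are not given in the sources used here. Per the labels' protocols, libraries were made from 1 ng of RNA with the method of Picelli. Groups follow the sample titles. Gene lengths and positions are those of the table.

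The test was that of edgeR 4.0.16 under R 4.3.3: filterByExpr on the 4 groups, TMM scaling, 1 term per group over all 14 libraries, and robust quasi-likelihood F tests (two-sided), adjusted by Benjamini-Hochberg over the 15915 genes tested at a threshold of 0.05. CPM is a count divided by the TMM-scaled library total, times 1e6; log2 CPM for correlations used a prior count of 2. SEs come from the F statistic and 95% intervals from the t quantile. Alternatives were DESeq2 1.42.0, limma 3.58.1 (voom), other scaling, other filters, fewer groups, a replicate block, summed Dcpp counts and leaving out each library. The fit was tested on simulated data. Counting error only is covered by counts of 0, since reads carry no molecular identifiers. No libraries were identical.

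All 10 genes were named. From each list, genes past the threshold and the 2 with the highest mean CPM were named, besides genes that another tool called. The 5 genes most alike were taken by Pearson's r, leaving out predicted genes and pseudogenes. The 10 genes and the lists were chosen with earlier results of these data known. Promoters are from RefSeq (GRCm38.p6), where all 10 matched by name, and shared 50-base stretches from GENCODE transcripts.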

Additional observations from a re-analysis of the deposited data

Results flagged for a closer look

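Of 22 sets of 4 libraries after RT that were examined (each of the 10 genes and the share of the 10 in both populations), 1 had a library far from the rest. Dcpp1 was at 514 CPM in Tert+ RT replicate 4, and its gap to the nearest of the other 3 libraries was 0.879 of the range of the group. Chance alone marks about 1 set in 20 by this measure.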

How the results depend on the processing

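Each of the 50 log2 fold changes (10 genes, 5 comparisons) was recomputed under up to 24 alternatives, 1155 values in all. Of these 1061 kept their direction and side of the threshold, 11 came to pass it and 83 changed direction; 20 of the 50 kept their direction under all alternatives. The causes were not tested. Lpo rests on the fewest counts, 0 to 46 after RT and 4 and 11 in Tert+ no RT replicates 2 and 3.

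Leaving out 1 library in turn, values for RT in Tert+ ran from -1.59 to 3.72 for Bpifa2, -5.35 to 0.091 for Car6, -0.54 to 0.64 for Dcpp1, -6.39 to 1.65 for Lpo, -4.40 to 0.0051 for Pip, -3.51 to 0.83 for Prol1 and -0.78 to 0.42 for Smgc. For RT in Tert- they ran from -1.05 to 0.11 for Dcpp1, -0.57 to 1.51 for Dcpp2 and -0.64 to 1.48 for Dcpp3. For Tert+ against Tert- without RT they ran from -5.66 to 0.75 for Bpifa2, -3.14 to 2.61 for Car6, -3.31 to 1.10 for Dcpp2, -1.77 to 1.35 for Dcpp3, -5.81 to 2.30 for Lpo, -2.71 to 2.67 for Mucl2, -2.51 to 1.96 for Pip and -2.18 to 2.65 for Prol1. After RT they ran from -0.15 to 0.76 for Car6, -0.83 to 1.21 for Lpo and -0.21 to 0.44 for Prol1. For the difference of RT effects they ran from -2.19 to 3.55 for Car6, -0.064 to 1.17 for Dcpp1, -0.12 to 4.29 for Dcpp2, -0.45 to 2.66 for Dcpp3, -2.24 to 5.86 for Lpo, -1.78 to 3.59 for Mucl2, -1.07 to 3.39 for Pip and -2.63 to 2.19 for Prol1.

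With limma voom the sign changed for RT in Tert+ for Bpifa2 (2.02), for Tert+ against Tert- without RT for Car6 (-0.90), Dcpp1 (-1.15), Lpo (-3.50), Mucl2 (-0.36), Pip (-0.71) and Prol1 (-0.26), and for the difference of RT effects for Car6 (1.24), Lpo (4.77), Mucl2 (1.10), Pip (1.45) and Prol1 (0.35). Without a filter on low counts Dcpp3 with RT in Tert- was -0.0092.

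Deviations of libraries with the same replicate number correlated at -0.08 to 0.12, over 0.1 only for 2 of the 3 pairs of Tert+ with Tert- without RT. The labels name no shared animal, and the numbers were not taken as pairs. With the replicate block the sign changed for Bpifa2 (1.17, RT in Tert+), Dcpp1 (0.13, RT in Tert-), Lpo (-1.86, Tert+ against Tert- without RT) and, for the difference of RT effects, Car6 (0.26), Lpo (2.27), Mucl2 (0.40) and Pip (0.78). With the replicate block within RT state it changed, without RT, for Car6 (-1.11), Dcpp1 (-0.47), Lpo (-3.32), Mucl2 (-0.28), Pip (-0.71) and Prol1 (-0.36) and, for the difference, for Car6 (1.42), Lpo (3.53), Mucl2 (1.00), Pip (1.48) and Prol1 (0.40); 1 gene of the table passed after RT. No member passed under either block.

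Genes of the whole table past the threshold numbered 72 without RT, 109 after RT, 1057 for RT in Tert+, 1202 for RT in Tert- and 12 for the difference with DESeq2, and 22 without and 0 after RT with limma voom. Without a filter they numbered 16 and 4. With only the 2 groups compared they numbered 1 after RT, 49 for RT in Tert+ and 88 for RT in Tert-. Leaving out 1 library they ran from 1 to 13 without RT, 0 to 7 after RT, 21 to 507 for RT in Tert+, 18 to 901 for RT in Tert- and 0 to 1 for the difference. Of the 10 genes, 4 passed with DESeq2 for RT in Tert+ and 3 in Tert-, 1 (Pip) with only the 2 groups compared in Tert-, and 0 to 3 in Tert- leaving out 1 library.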
